A study of Mus musculus with 6 samples.

Results

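The urea cycle and amino acid catabolism genes of liver are described here as a set of 41 genes chosen by name for the enzymes they encode. All 41 names were listed in the liver RNA-Seq data, among 47232 usable gene names, and 39 of them could be tested among 18619 genes; the other two, Cps1 and Prodh, are listed more than once and are given copy by copy. Livers of 3 laboratory mice and 3 wild mice were measured, 1 library per mouse, from frozen tissue that was not fixed in formalin. The laboratory mice were adult males of the inbred strain C57BL/6, bought from a breeder and killed on arrival. The wild mice were outbred adult house mice, live-trapped at 2 places and then kept in captivity for months: wild liver 1 came from a male, and wild livers 2 and 3 came from females. The labels name no transgene and no treatment. Origin, housing, sex, body weight and the time of preparation differ together between the groups, so their effects cannot be told apart. Only for sex can the wild male be set against the laboratory males, as 1 animal. The paper gives the wild mice as adult, without an age.

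Hepatocytes remove the nitrogen of amino acids by moving it onto glutamate and aspartate through aminotransferases, freeing ammonia from glutamate and glutamine, and building urea from ammonia and aspartate in a cycle that begins in the mitochondrion and ends in the cytosol. The carbon skeletons are then broken down by separate routes for each amino acid, many of which are confined to liver, and feed glucose, ketone body and fat synthesis. The methionine route is also the source of S-adenosylmethionine, the methyl donor of the cell.

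Most of these genes were lower in the laboratory livers than in the wild livers. On the zFPKM scale, which is log2 FPKM centred and scaled within each liver, 24 of the 39 tested genes were lower in the laboratory livers (61.5%), against 7.28% of all genes tested (limma, adjusted p under 0.05). Arg1 alone was higher (2.56%, against 7.17% of all genes), and 14 genes did not pass the test. The median zFPKM difference, laboratory minus wild, was -0.42 over the 39 genes and 0.005 over all genes tested, and 34 of the 39 differences were negative. The difference ran from -1.38 for Gnmt to 0.28 for Arg1. The summed FPKM of the 39 genes was 6019, 7855 and 6457 in the laboratory livers and 21246, 22135 and 19766 in the wild livers. FPKM was also higher in wild livers over all genes tested, with a median ratio of wild to laboratory means of 1.58, against 3.85 over the 39. Sums and ratios of FPKM given here are not corrected for that. In a piece of liver, fewer cells of a type and less RNA per cell cannot be told apart.

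**Figure D1:**
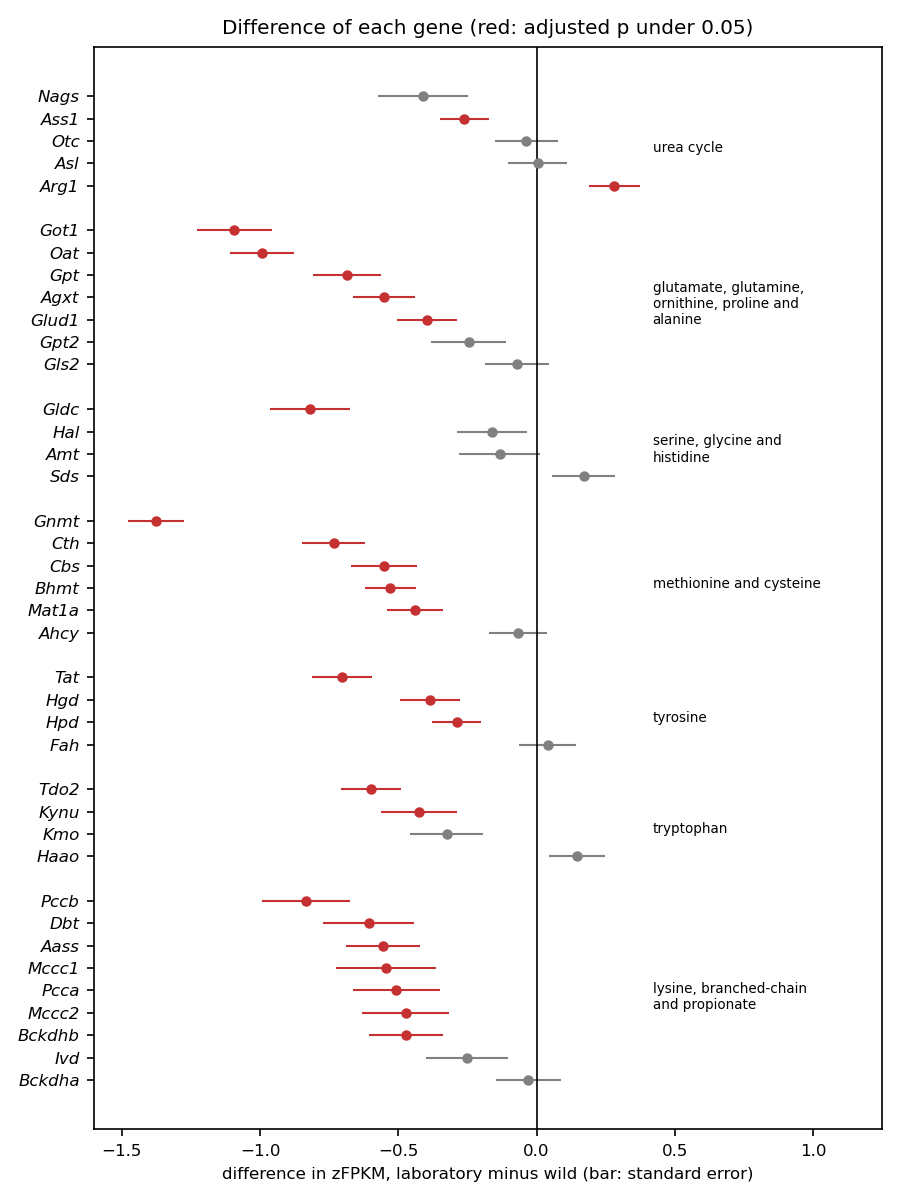
Difference in zFPKM between the 3 laboratory and 3 wild livers for each of the 39 tested genes, grouped by role (points: laboratory minus wild; bars: standard error; red: adjusted p under 0.05 by limma). Points left of 0 are lower in laboratory livers. On that side lie 24 of the red points, and 1, Arg1, lies on the other. The bars follow the level of a gene and not the spread of its own livers.

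Promoter windows from RefSeq on GRCm38.p6 were at hand for 31 of the 41 genes. They are shown for the 3 genes with the largest falls among those 31 (Gnmt, Got1 and Oat) and, for contrast, for Haao, the gene among them whose difference was the most positive. Each window holds 250 bases before the start site and 50 after it, written 5′ to 3′ on the strand of the gene, and all 4 genes lie on the minus strand. For Gnmt and Haao the start in that table lies inside the listed span of the gene. Capitals mark every match to 8 short motifs searched on both strands: the TATA box TATAAA, the NF-Y motif CCAAT, the E-box CACGTG, the short cyclic AMP element TGACGT, the short glucocorticoid receptor motif AGAACA, the HNF1 core GTTAAT, the forkhead core GTAAACA and the short HNF4 motif CAAAGTC, none of which contains another.
Gnmt (chr17:46729116-46729415): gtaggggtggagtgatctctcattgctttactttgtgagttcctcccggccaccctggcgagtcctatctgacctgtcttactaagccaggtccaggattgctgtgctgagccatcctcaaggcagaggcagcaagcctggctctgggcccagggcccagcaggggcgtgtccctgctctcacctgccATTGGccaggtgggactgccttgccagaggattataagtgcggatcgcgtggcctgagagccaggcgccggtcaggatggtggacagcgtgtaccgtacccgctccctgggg
Got1 (chr19:43524556-43524855): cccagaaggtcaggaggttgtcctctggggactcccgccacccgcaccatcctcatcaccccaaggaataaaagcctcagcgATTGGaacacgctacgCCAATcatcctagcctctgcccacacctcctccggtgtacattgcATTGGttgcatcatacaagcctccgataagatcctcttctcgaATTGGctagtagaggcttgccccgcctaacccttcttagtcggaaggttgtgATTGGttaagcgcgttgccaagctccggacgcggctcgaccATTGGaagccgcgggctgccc
Oat (chr7:132576349-132576648): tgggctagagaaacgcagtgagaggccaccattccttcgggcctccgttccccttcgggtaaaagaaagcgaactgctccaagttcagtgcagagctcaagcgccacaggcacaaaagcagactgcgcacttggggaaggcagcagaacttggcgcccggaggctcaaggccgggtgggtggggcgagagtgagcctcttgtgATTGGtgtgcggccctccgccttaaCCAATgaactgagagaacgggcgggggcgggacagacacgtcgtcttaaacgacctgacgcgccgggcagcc
Haao (chr17:83846741-83847040): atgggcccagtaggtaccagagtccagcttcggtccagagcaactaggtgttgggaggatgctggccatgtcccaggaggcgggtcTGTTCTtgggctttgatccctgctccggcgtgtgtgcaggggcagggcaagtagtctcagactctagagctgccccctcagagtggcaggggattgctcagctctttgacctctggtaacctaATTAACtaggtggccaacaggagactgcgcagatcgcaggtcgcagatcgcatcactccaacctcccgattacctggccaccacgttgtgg

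CCAAT, the recognition sequence of the NF-Y factor, was in all 3 windows of the genes that fell most. Got1 had 6 copies, of which 5 lay before the start and 1 after it, Oat had 2 copies, 47 and 22 bases before the start, and Gnmt had 1, 62 bases before it. The Haao window held no CCAAT but 1 AGAACA and 1 GTTAAT. Over the set, 20 of 33 windows (60.6%), from 18 genes, held CCAAT, against 37.4% of 32851 windows of the same length. Of those 18 genes 14 were lower in laboratory livers, and of the 12 tested genes without CCAAT 5 were. The other motifs were in 0 to 5 of the 31 genes: AGAACA in 5 (18.97% of all windows), TATAAA in 3 (13.6%), CACGTG in 3 (7.15%), GTTAAT in 2 (7.10%), TGACGT in 1 (7.51%), CAAAGTC in 1 (4.44%) and GTAAACA in 0 (3.65%). These counts describe letters in a window and were not tested.

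FPKM is given below for laboratory livers 1, 2 and 3 and then, after the word against, for wild livers 1, 2 and 3. Differences are in zFPKM, laboratory minus wild, with their standard error (SE). Counts of called genes by role stand beside 7.28% lower and 7.17% higher over all genes tested. In the main fit the SE follows a gene's mean level, by a trend over all genes, and not its own spread between livers. Sds and Cth have mean zFPKM of 2.03 and 2.04 and the same SE of 0.114. Their SDs of zFPKM in laboratory livers are 0.040 and 0.236. The limma p-values rest on that shared variance and do not measure how mice of a group vary for 1 gene. Levels are per length of transcript, so they can be set side by side between genes.

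The urea cycle enzymes themselves did not share a direction in zFPKM. Of the 5 that could be tested, Ass1 was lower in laboratory livers, Arg1 was higher, and Nags, Otc and Asl did not pass the test, with a median difference of -0.04. Ass1 (chr2:31470270-31520670), which joins citrulline to aspartate, had FPKM of 1149.9, 1254 and 864 against 3381, 3080.2 and 2696. All laboratory livers lay below all wild livers, and the gene was the most abundant of the set in wild livers, with a mean of 3052 ± 343 (SD, n = 3) against 1089 ± 202. The difference was -0.26, SE 0.089, limma adjusted p = 0.0271. Arg1 (chr10:24915207-24927470), which splits arginine into urea and ornithine, had FPKM of 999, 1460.3 and 1139.5 against 1169, 1163 and 1107. Laboratory and wild values overlap in FPKM and in rank, and the wild mean was 0.956 times the laboratory mean. Only after each liver was centred and scaled did the groups separate, with a difference of 0.28, SE 0.092, limma adjusted p = 0.0204. Arg1 thus held the first place of the set in laboratory livers and the fifth in wild livers. Both calls were near the threshold and depended on scale. With the median zFPKM of each liver set to 0, limma adjusted p was 0.711 for Ass1 and 0.529 for Arg1. On log2(FPKM + 0.1) with the median of each liver set to 0, it was 0.162 and 0.0799. Quantile normalization gave limma adjusted p of 0.00148 for Ass1 and 0.234 for Arg1. Leaving out laboratory liver 1 or 2 or any wild liver gave Ass1 limma adjusted p of 0.0625 to 0.109. Leaving out laboratory liver 2 or any wild liver gave Arg1 limma adjusted p of 0.0644 to 0.123. The direction was kept, as it must be where groups do not overlap in zFPKM.

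Nags (chr11:102145513-102149528) makes N-acetylglutamate, the obligate activator of the cycle's entry enzyme. Its FPKM was 9.42, 11.9 and 7.88 against 37.8, 31.2 and 36.6, with no overlap between the groups in FPKM, zFPKM or rank, and the difference was -0.41, SE 0.16, limma adjusted p = 0.0705. Otc (chrX:10252230-10321024), an X-linked gene whose product makes citrulline, had FPKM of 138, 149 and 98.2 against 221, 225 and 225. Its wild FPKM spread by 2.44 (SD, n = 3) around 223.8, and its laboratory values were all lower in FPKM but overlapped the wild ones in zFPKM (difference -0.038, SE 0.11, limma adjusted p = 0.883). Asl (chr5:130011258-130024381), which releases arginine and fumarate, had FPKM of 176, 242 and 202 against 327, 345 and 354. Its groups overlapped in zFPKM and in rank (difference 0.0040, SE 0.11, limma adjusted p = 0.989).

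Cps1, the carbamoyl phosphate synthetase that admits ammonia to the cycle, is listed as 2 entries, on chromosome 1 (chr1:67122426-67231267) and on an alternate sequence of the assembly. The chromosome copy had FPKM of 111.6 and 94.7 in laboratory livers 2 and 3, was not listed for laboratory liver 1, and had 429, 364 and 436 in the wild livers. The alternate copy had 26.5, 34.3 and 32.8 in the laboratory livers and 579, 518 and 582 in the wild livers. Both copies were lower in every laboratory liver that lists them. In a limma fit with each listed copy as its own entry (20721 entries), the chromosome copy differed by -0.48 (SE 0.13, adjusted p = 0.00331, on 2 laboratory livers) and the alternate copy by -1.19 (SE 0.12, adjusted p = 5.17e-20). The summed FPKM of both copies was 145.9 and 127.5 in laboratory livers 2 and 3 and 1008, 882 and 1018 in the wild livers, a difference of -0.76 (SE 0.12, limma adjusted p = 9.34e-09). The chromosome copy held 76.5% and 74.3% of that sum in laboratory livers 2 and 3 and 42.6%, 41.2% and 42.8% in the wild livers. How reads were divided between near-identical copies is not given in the sources used here, so the value of a single copy is uncertain. Prodh, the proline dehydrogenase of the mitochondrion (chr16:18071726-18089283), is listed 3 times with nearly equal values: its chromosome copy had FPKM of 17.2 and 20.5 in laboratory livers 2 and 3 and 44.1, 47.3 and 33.2 in the wild livers. None of its 3 copies passed the test, nor did their sum (difference -0.19, SE 0.14, limma adjusted p = 0.447).

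**Figure D2:**
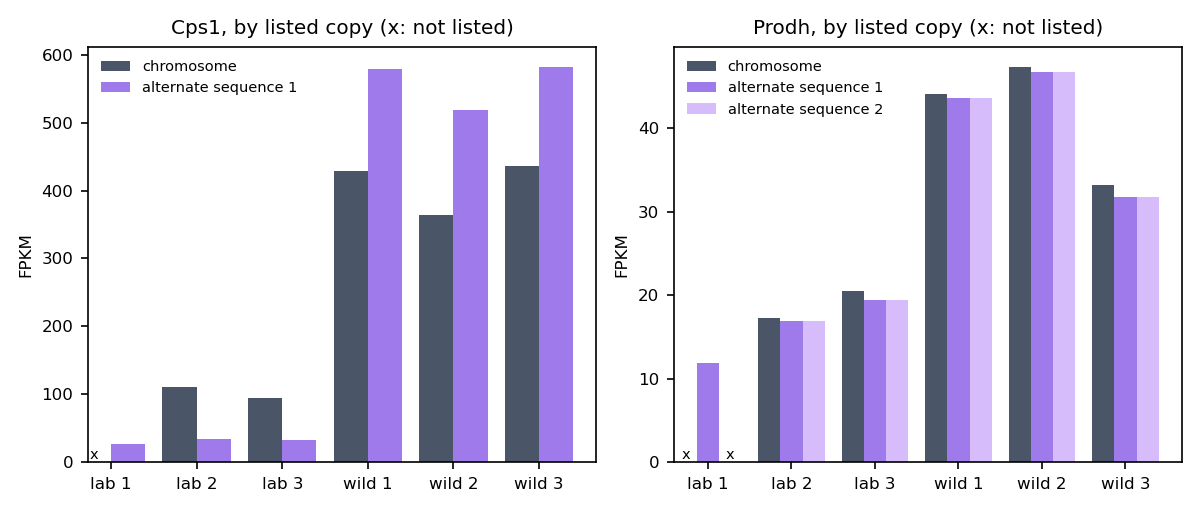
FPKM of each listed copy of Cps1 (left) and Prodh (right) in each liver (bars; lab, laboratory; x, copy not listed for laboratory liver 1). In the wild livers the alternate copy of Cps1 is the higher bar (579, 518 and 582), in laboratory livers 2 and 3 the lower (34.3 and 32.8); the copies of Prodh stand at about the same height within each liver.

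The enzymes that handle glutamate, ornithine and alanine nitrogen were lower in laboratory livers for 5 of 7 tested genes, with a median difference of -0.55, and all 7 differences were negative. Got1 (chr19:43499752-43524605), the cytosolic aspartate aminotransferase, had FPKM of 8.45, 13.6 and 17.8 against 146, 298 and 167. The highest laboratory liver was far under the lowest wild liver, and the mean in wild livers was 15.3 times the laboratory mean, the second largest ratio of the set (difference -1.09, SE 0.14, limma adjusted p = 1.76e-13). Oat (chr7:132557475-132576398), the ornithine aminotransferase, had FPKM of 27.1, 67.7 and 43.5 against 586, 536 and 449. The groups were again far apart, at 46.1 ± 20.4 in laboratory livers and 523.7 ± 69.5 in wild livers (SD, n = 3 each), a ratio of 11.4 (difference -0.99, SE 0.12, limma adjusted p = 2.10e-15). By mean FPKM, Oat was place 9 of the 39 genes in wild livers and place 23 in laboratory livers.

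Gpt (chr15:76696726-76699675), the cytosolic alanine aminotransferase, had FPKM of 30.5, 47.5 and 39.4 against 236, 253 and 271, with no overlap and a difference of -0.69, SE 0.12, limma adjusted p = 1.06e-06. For Gpt2 (chr8:85492576-85528902), its mitochondrial counterpart, FPKM was 18.3, 34.5 and 40.9 against 85.9, 72.6 and 86.4. Gpt2 did not pass the test (difference -0.25, SE 0.14, limma adjusted p = 0.244) and its ranks overlapped. Whether the differences of Gpt and Gpt2 are unequal was not tested. Agxt (chr1:93135240-93145421), which passes amino groups from alanine to glyoxylate, had FPKM of 80.5, 106 and 69.9 against 423, 447 and 385, all laboratory values lying below all wild ones (difference -0.55, SE 0.11, limma adjusted p = 3.17e-05). Glud1 (chr14:34310727-34345033), the glutamate dehydrogenase that frees ammonia, had FPKM of 102, 144 and 136 against 426, 487 and 500.0 and was lower in laboratory livers (difference -0.40, SE 0.11, limma adjusted p = 0.00376; 0.0838 without wild liver 3). Gls2 (chr10:128194635-128210004), the liver glutaminase, had FPKM of 89.6, 124 and 109 against 204, 237 and 181. Its zFPKM values overlapped (difference -0.072, SE 0.12, limma adjusted p = 0.761).

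Among the serine, glycine and histidine enzymes 1 of 4 was lower in laboratory livers, with a median difference of -0.15. This was Gldc (chr19:30098441-30175441), the decarboxylase of the glycine cleavage system, with FPKM of 9.89, 15.1 and 9.99 against 102, 103 and 82.6. All laboratory livers were low, and the mean in wild livers was 8.24 times theirs (difference -0.82, SE 0.15, limma adjusted p = 1.04e-06). Amt (chr9:108296905-108302302), the aminomethyltransferase of the same system, had FPKM of 21.9, 20.8 and 20.5 against 45.0, 46.3 and 44.3, so tightly grouped that laboratory and wild values did not overlap in FPKM or rank. They did overlap in zFPKM (difference -0.13, SE 0.15, limma adjusted p = 0.633). Sds (chr5:120476547-120483932), the serine dehydratase that makes pyruvate for gluconeogenesis, had FPKM of 123, 165 and 175 against 178, 173 and 199.7. These overlap in FPKM, but Sds ranked higher in every laboratory liver (places 424, 378 and 317) than in any wild liver (506, 521 and 462), the single gene of the set for which this held (2.56%, against 25.6% of all genes). Its zFPKM difference was positive and did not pass the test (difference 0.17, SE 0.11, limma adjusted p = 0.361). Hal (chr10:93488768-93516761), the histidine ammonia-lyase, had FPKM of 47.99, 71.8 and 41.3 against 152, 91.9 and 111, with overlap in zFPKM and rank (difference -0.16, SE 0.13, limma adjusted p = 0.467).

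The methionine and cysteine enzymes were lower in laboratory livers for 5 of 6 genes, with a median difference of -0.54. Gnmt (chr17:46725664-46729211), which uses S-adenosylmethionine to methylate glycine, had FPKM of 56.6, 116 and 134 against 2464, 2864 and 2477. Every wild liver was at least an order of magnitude above every laboratory liver. The means were 102.4 ± 40.7 in laboratory livers and 2602 ± 227 in wild livers (SD, n = 3 each), and the ratio of 25.4 was the largest of the set. The difference was -1.38, SE 0.10, limma adjusted p = 6.21e-40. Within each liver's own ranking by FPKM, Gnmt took places 793, 511 and 399 in the laboratory livers and 27, 23 and 26 in the wild livers, and by mean FPKM it was place 3 of the 39 genes in wild livers and place 16 in laboratory livers.

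Mat1a (chr14:41105012-41124428), which makes S-adenosylmethionine, had FPKM of 175, 287 and 279 against 675, 1229.9 and 1219. The wild male was lower than both wild females and still above all laboratory males (difference -0.44, SE 0.10, limma adjusted p = 2.82e-04). Bhmt (chr13:93616891-93637758), which returns homocysteine to methionine with betaine, had FPKM of 389, 673 and 462 against 2554, 2355 and 2291 and a wild mean 4.72 times the laboratory mean (difference -0.53, SE 0.093, limma adjusted p = 6.49e-07). The transsulfuration enzymes that lead from homocysteine to cysteine fell together. Cbs (chr17:31612623-31637233), which forms cystathionine, had FPKM of 44.7, 56.6 and 59.8 against 283, 268 and 254 (difference -0.55, SE 0.12, limma adjusted p = 1.05e-04). Cth (chr3:157894248-157925081), which cleaves it, had FPKM of 54.3, 94.6 and 51.6 against 532, 478 and 373 (difference -0.73, SE 0.11, limma adjusted p = 8.75e-09). Neither gene's groups overlapped in FPKM, zFPKM or rank. Ahcy (chr2:155059310-155074497), which hydrolyses S-adenosylhomocysteine, was the exception in this route, with FPKM of 254, 313 and 235 against 520.1, 555 and 452. Its laboratory values were lower in FPKM and in rank but overlapped the wild ones in zFPKM (difference -0.067, SE 0.10, limma adjusted p = 0.748).

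**Figure D3:**
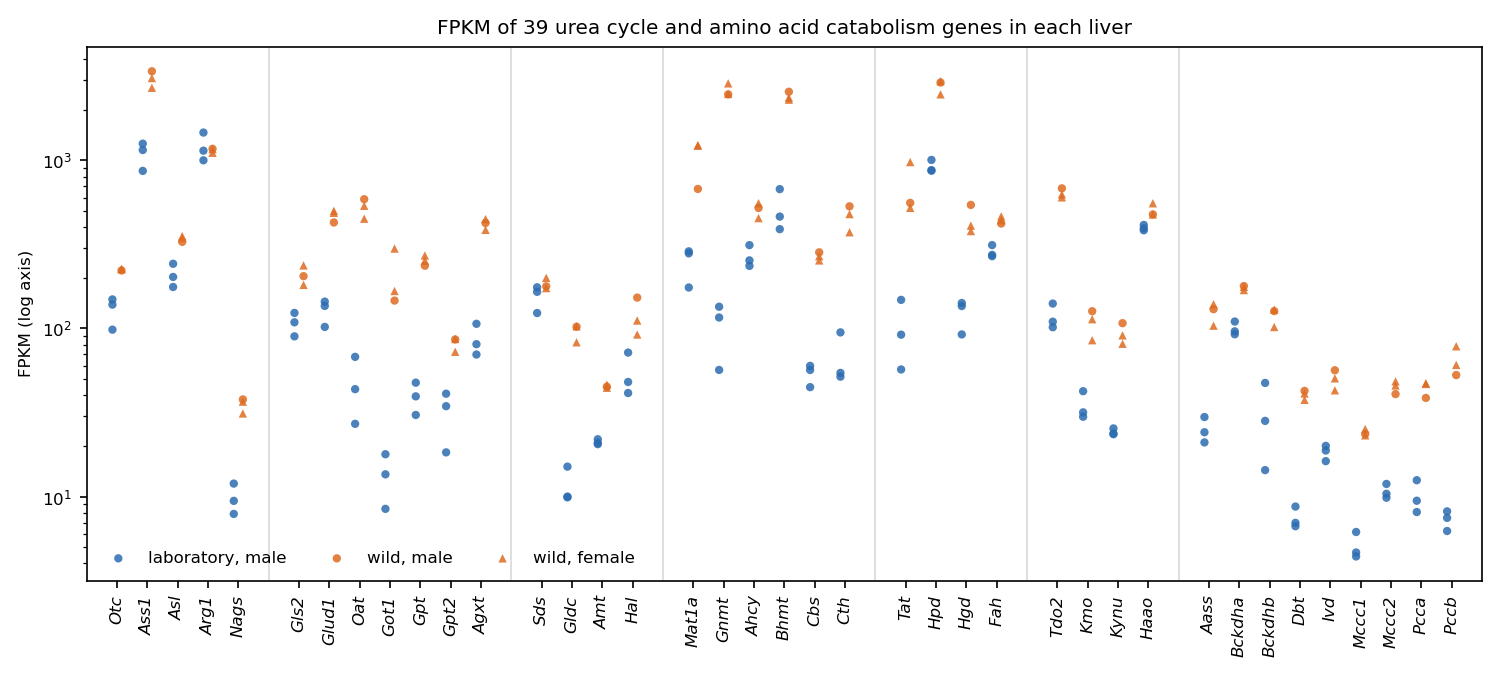
FPKM (log axis) of the 39 tested genes in each liver, in the role order of the text (blue circles: laboratory males; orange circles: wild male; orange triangles: wild females). The groups do not overlap for 37 genes, all lower in laboratory livers; Arg1 and Sds are the 2 that overlap.

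Of the tyrosine enzymes 3 of 4 were lower in laboratory livers, with a median difference of -0.34. Tat (chr8:109986078-109999804), the aminotransferase that opens the route and a classical glucocorticoid-induced gene, had FPKM of 56.96, 91.7 and 148 against 558, 975 and 521. Both groups spread widely, at 98.8 ± 45.8 and 684.5 ± 252 (SD, n = 3 each), without overlapping (difference -0.70, SE 0.11, limma adjusted p = 7.09e-09). Hpd (chr5:123171807-123182723), the hydroxyphenylpyruvate dioxygenase, had FPKM of 866, 1004 and 873 against 2897, 2953 and 2464. It was place 2 of the set in wild livers and place 3 in laboratory livers, and its fall was small (difference -0.29, SE 0.090, limma adjusted p = 0.0131), with limma adjusted p of 0.0501 to 0.0948 when any liver but laboratory liver 3 was left out. Hgd (chr16:37579742-37632026), the homogentisate dioxygenase, had FPKM of 92.03, 142 and 136 against 542, 408 and 379 (difference -0.39, SE 0.11, limma adjusted p = 0.00554), with no overlap between groups, and limma adjusted p of 0.0624 without laboratory liver 1. Fah (chr7:84585159-84605942), the hydrolase that ends the route, had FPKM of 269, 313 and 274 against 420.1, 440.4 and 463. Its groups overlapped in zFPKM and rank (difference 0.040, SE 0.10, limma adjusted p = 0.861).

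Of the tryptophan enzymes 2 of 4 were lower in laboratory livers, with a median difference of -0.37. Tdo2 (chr3:81958412-81975728), the dioxygenase that commits tryptophan to the kynurenine route, had FPKM of 109.5, 140.5 and 102 against 680.2, 626 and 601. The groups were tight and apart, with a wild mean 5.43 times the laboratory mean (difference -0.60, SE 0.11, limma adjusted p = 1.20e-06). Kynu (chr2:43555258-43683048), the kynureninase, had FPKM of 23.7, 25.4 and 23.5 against 107, 90.8 and 80.98 and was lower in laboratory livers (difference -0.42, SE 0.14, limma adjusted p = 0.0189). Leaving out a wild liver gave Kynu limma adjusted p of 0.0541 to 0.14. Kmo (chr1:175632193-175660853), the kynurenine monooxygenase, had FPKM of 31.7, 42.3 and 29.8 against 126, 113 and 85.01. Its groups did not overlap in FPKM, zFPKM or rank, and it did not pass the test (difference -0.32, SE 0.13, limma adjusted p = 0.0806). Haao (chr17:83831348-83848981), the hydroxyanthranilate dioxygenase, had FPKM of 383, 394 and 412 against 476, 476 and 554. It was the most abundant tryptophan enzyme in laboratory livers. Its laboratory zFPKM lay above all wild values, its FPKM below them, and it did not pass the test (difference 0.15, SE 0.10, limma adjusted p = 0.390).

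The mitochondrial enzymes for lysine, the branched-chain amino acids and propionate were lower in laboratory livers for 7 of 9 genes, with a median difference of -0.51, and all 9 differences were negative. Pccb (chr9:100982032-101034940), the beta subunit of propionyl-CoA carboxylase, had FPKM of 6.23, 8.16 and 7.46 against 52.8, 60.6 and 78.2. The wild mean was 8.77 times the laboratory mean, the fourth largest ratio of the set (difference -0.83, SE 0.16, limma adjusted p = 5.54e-06). Pcca (chr14:122484365-122889944), its alpha subunit, had FPKM of 9.44, 12.5 and 8.09 against 38.6, 47.2 and 46.7 (difference -0.51, SE 0.16, limma adjusted p = 0.0148), also without overlap. The Pcca call was lost without laboratory liver 3, wild liver 2 or wild liver 3 (limma adjusted p of 0.0945 to 0.176). Aass (chr6:23072173-23132986), which begins lysine breakdown, had FPKM of 20.98, 29.7 and 24.1 against 130.1, 139 and 104 (difference -0.55, SE 0.13, limma adjusted p = 6.97e-04), with every laboratory liver under every wild one.

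The branched-chain keto acid dehydrogenase complex showed unequal values for its subunits. Dbt (chr3:116513070-116549981), the transacylase core, had FPKM of 6.97, 8.71 and 6.66 against 42.5, 40.98 and 37.6, with no overlap (difference -0.61, SE 0.16, limma adjusted p = 0.00335). Bckdhb (chr9:83925111-84124240), the beta subunit of the decarboxylase, had FPKM of 14.4, 28.2 and 47.4 against 127, 129 and 102. The laboratory livers spread widely and stayed below the wild livers (difference -0.47, SE 0.13, limma adjusted p = 0.00502). Bckdha (chr7:25629852-25658782), the alpha subunit of the same decarboxylase, had FPKM of 92.2, 109.8 and 95.98 against 178, 177 and 169. It did not pass the test and its groups overlapped in zFPKM and rank (difference -0.029, SE 0.12, limma adjusted p = 0.915). Whether the subunits differ in their difference was not tested. The calls of Dbt and Bckdhb were lost without wild liver 2 (limma adjusted p of 0.067 and 0.0902) or wild liver 3 (0.061 and 0.0512), and that of Bckdhb also without laboratory liver 1 (0.107).

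In the leucine route, Mccc1 (chr3:35956292-36000694) and Mccc2 (chr13:99948532-100015639) encode the subunits of methylcrotonyl-CoA carboxylase. Mccc1, the least abundant gene of the set in both groups, had FPKM of 4.65, 6.15 and 4.40 against 23.5, 23.1 and 25.2 (difference -0.54, SE 0.18, limma adjusted p = 0.0236). Mccc2 had FPKM of 10.4, 11.9 and 9.84 against 40.7, 45.8 and 48.4 (difference -0.47, SE 0.16, limma adjusted p = 0.0234). Neither gene's groups overlapped. Both calls were lost without laboratory liver 3, wild liver 2 or wild liver 3 (limma adjusted p of 0.0845 to 0.223). Ivd (chr2:118861959-118882909), the isovaleryl-CoA dehydrogenase of the step before, had FPKM of 16.2, 20.0 and 18.8 against 56.3, 50.4 and 42.8. It did not overlap between groups in FPKM, zFPKM or rank, and it did not pass the test (difference -0.25, SE 0.15, limma adjusted p = 0.284).

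The order of the genes by abundance differed between the groups. In wild livers Ass1, Hpd, Gnmt and Bhmt led, at mean FPKM of 3052, 2772, 2602 and 2400.0, and in laboratory livers Arg1, Ass1, Hpd and Bhmt led, at 1199.5, 1089, 914 and 508. Ass1 and Hpd are neighbours whose wild values interleave, and so are Gnmt and Bhmt. The median ratio of wild to laboratory mean FPKM was 3.85 over the 39 genes, from 0.956 to 25.4, against 1.58 over all genes tested. The ratio exceeded 2 for 30 genes and 5 for 10. The share of all genes past these marks is not given here. Within groups these genes varied little: the median coefficient of variation of FPKM was 18.7% in laboratory livers and 9.65% in wild livers, against 29.5% and 27.0% over all genes tested.

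Scales that treat the livers differently gave the same side for most of the set. In FPKM all laboratory livers lay below all wild livers for 37 of the 39 genes (94.9%), against 43.7% of all genes, and never above. In zFPKM this held for 28 genes (71.8%, against 14.1%), with 3 genes above (7.69%, against 14.2%), namely Arg1, Sds and Haao. By rank within a liver, which does not depend on scaling, 29 genes took lower places in all laboratory livers (74.4%, against 27.2%). All 24 genes called lower were among those that did not overlap in zFPKM and in rank, and 14 of them stayed under the threshold whichever liver was left out. The share of all called genes that did so is not given here. On log2(FPKM + 0.1) without centring, 36 of the 39 genes were called lower and 0 higher, against 37.9% and 8.19% of all genes. With the median of each liver then set to 0, 26 were called lower and 0 higher, against 18.6% and 28.7%. Quantile normalization gave 28 lower and 1 higher, against 20.4% and 18.7%. The 1 was Sds (difference 0.17, limma adjusted p = 0.0437) and not Arg1 (difference 0.10, limma adjusted p = 0.234). In zFPKM without the trend of variance on level, 3 were called lower (7.69%, against 1.89% of all genes) and 0 higher (2.38% of all genes). For a single gene an exact permutation test of log2 FPKM, two-sided, can reach no p below 0.1 with 3 livers in each group, so it adds nothing to the overlaps given here.

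**Figure D4:**
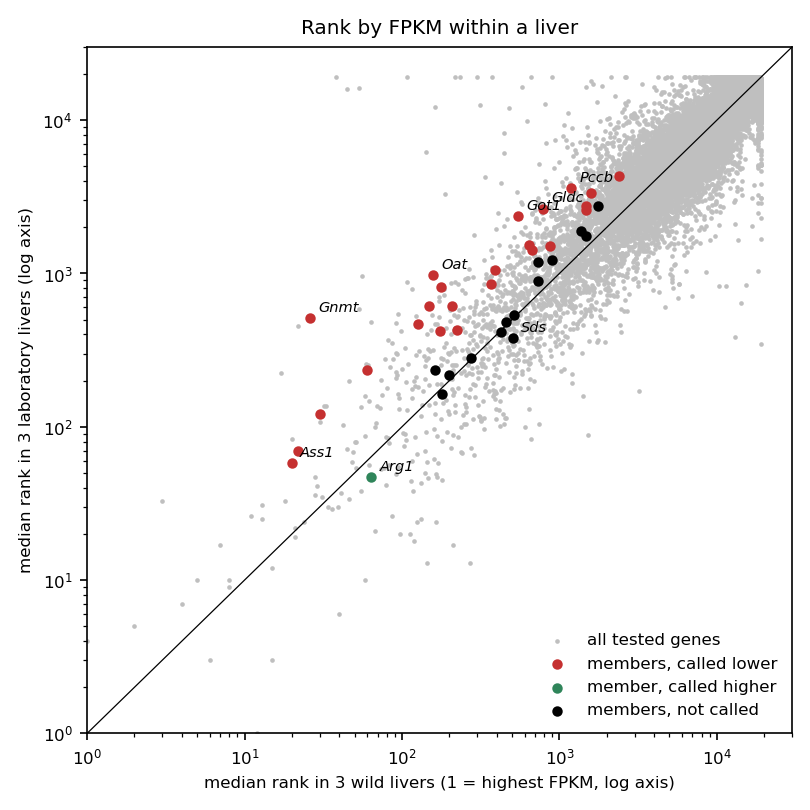
Median rank by FPKM in the 3 wild livers (horizontal, log axis) and the 3 laboratory livers (vertical, log axis) for all 18619 tested genes (grey) and the 39 urea cycle and amino acid catabolism genes (red: called lower; green: Arg1, called higher; black: not called). Points above the diagonal rank lower in laboratory livers; Gnmt lies farthest from it among the set, at places 23 to 27 in wild and 399 to 793 in laboratory livers.

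Abundant genes as a class did not share this direction. Of the 414 genes with a mean zFPKM above 2, 19.3% were lower and 36.0% higher in laboratory livers. The set has 18 genes in that class, of which 11 were lower (61.1%) and 1 was higher (5.56%). Among genes of mean zFPKM above 1 the difference fell with transcript length (Spearman's rho = -0.35 across 1895 genes, which are not independent replicates), and across the 39 genes the same value was -0.13. With the trend on length removed in each liver, 24 of the 39 genes were again lower (61.5%, against 7.56% of all genes with a length) and Arg1, still positive, was no longer called (limma adjusted p = 0.0690).

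The wild group holds 1 male. In that liver 33 of the 39 genes took a higher place than in any laboratory male (84.6%, against 38.7% of all genes tested). Its FPKM exceeded every laboratory male for 38 genes (97.4%, against 51.7% of all genes). In zFPKM the wild male was below both wild females for 29 of the 39 genes (74.4%, against 83.1% of all genes). By rank it was below both for 12 (30.8%, against 31.3%), between them for 11 (28.2%, against 26.5%) and above both for 16 (41%, against 42.2%), shares near those of all genes. With sex as a covariate, where the contrast rests on that animal, 10 genes were lower in laboratory livers (25.6%, against 1.34% of all genes), namely Gnmt, Oat, Got1, Bhmt, Cth, Tdo2, Tat, Gpt, Cbs and Gldc, and 0 were higher (6.04% of all genes; 1 at an unadjusted p under 0.05, limma). The direction of Arg1 was positive there, with limma adjusted p = 0.145.

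Other genes of these pathways, 92 in number and listed by role, shared the direction in part. Of the 87 that could be tested 24 were lower in laboratory livers (27.6%, against 7.28% of all genes) and 5 higher (5.75%, against 7.17% of all genes), so the share called higher was under that of all genes. Their median difference was -0.28. With sex as a covariate 3 were lower and 4 higher, against 1.34% and 6.04% of all genes. Further catabolic enzymes gave 16 lower (34%) and 3 higher (6.38%) of 47 (median -0.28). Among the largest falls were those of Acmsd, Aldh4a1, Dhtkd1 and Shmt1. Acmsd, which diverts tryptophan carbon from NAD synthesis, had FPKM of 0.403, 1.16 and 0.802 against 33.6, 18.2 and 13.6 (difference -1.43, SE 0.23, limma adjusted p = 4.09e-08). Its groups were far apart. Aldh4a1, the step after Prodh, had 11.5, 15.3 and 19.4 against 108, 147 and 121 (difference -0.79, SE 0.14, limma adjusted p = 6.52e-07), Dhtkd1, of the lysine route, had 2.45, 4.60 and 6.01 against 28.4, 32.6 and 36.3 (difference -0.78, SE 0.18, limma adjusted p = 3.28e-04), and Shmt1, which interconverts serine and glycine, had 9.59, 22.1 and 19.5 against 91.5, 143 and 133 (difference -0.75, SE 0.14, limma adjusted p = 3.53e-06).

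Amino acid carriers were lower in laboratory livers for 6 of 15 genes (40%, against 7.28% of all genes, median -0.44), and all 15 differences in zFPKM were negative. Some of these carriers were near the floor. Slc38a5 had FPKM of 0, 0 and 0.031 against 0, 0.021 and 0.12, and on centred log2 FPKM its difference was 0.40. Slc7a5 was under 1 in every liver. The 2 were not among the 6. The 6 include Slc25a15, the mitochondrial ornithine carrier of the urea cycle, with 22.5, 29.97 and 31.7 against 164, 167 and 118 (difference -0.58, SE 0.13, limma adjusted p = 2.16e-04). They also include Slc25a13, which exports aspartate from the mitochondrion, with 18.7, 21.1 and 17.8 against 102, 81.05 and 85.2 (difference -0.52, SE 0.14, limma adjusted p = 0.00275). Slc25a15 and Slc25a13 were chosen from the 6 after their values were seen. Amino acid synthesis genes gave 2 lower (18.2%) and 1 higher (9.09%) of 11 (median 0.26). Regulators of these pathways gave 0 lower and 1 higher (7.14%) of 14 (median -0.12, with 2 lower and 3 higher at an unadjusted p under 0.05, limma). Over all genes 7.28% were lower and 7.17% higher, so the shares called higher in these 2 lists were near that of all genes. The 5 genes called higher in laboratory livers, a share no larger than over all genes, were Asns, Mcee, Gcgr, Kyat1 and Afmid, and their values are given as a description. Asns, the asparagine synthetase, had FPKM of 0.684, 0.904 and 2.58 against 0.168, 0.137 and 0.0698 (difference 1.41, SE 0.41, limma adjusted p = 0.00712), low in all livers. Mcee, the methylmalonyl-CoA epimerase that follows propionyl-CoA carboxylase, had 118, 118 and 102 against 63.7, 49.3 and 50.7 (difference 0.61, SE 0.13, limma adjusted p = 3.86e-05). Laboratory values were above wild values for both. Gcgr, the glucagon receptor, had 98.6, 123 and 292 against 76.3, 81.9 and 102 (difference 0.57, SE 0.12, limma adjusted p = 6.39e-05), with laboratory liver 3 well above the others and an overlap in FPKM between laboratory and wild livers. Kyat1 and Afmid, of the kynurenine route, had 50.3, 75.2 and 135 against 69.9, 28.3 and 59.6 (difference 0.51, SE 0.13, limma adjusted p = 0.00173) and 62.4, 76.7 and 69.9 against 22.1, 70.9 and 82.8 (difference 0.43, SE 0.13, limma adjusted p = 0.0135), both overlapping in FPKM.

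**Figure D5:**
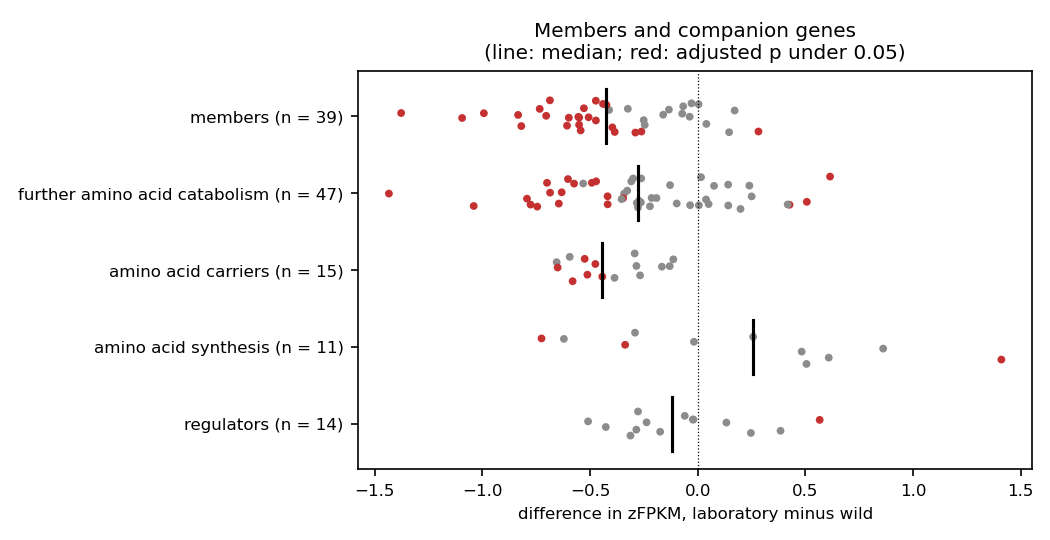
Difference in zFPKM, laboratory minus wild, of the 39 urea cycle and amino acid catabolism genes (top) and of the other genes of the pathways in 4 lists (points: genes, spread vertically for legibility; vertical line: median; red: adjusted p under 0.05 by limma). The medians are -0.42, -0.28, -0.44, 0.26 and -0.12 from top to bottom, and no carrier lies right of 0.

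The livers also differed in other ways, whose part in these results was not tested. The 10 most abundant names held 41.1% to 48.4% of the summed FPKM in laboratory livers and 15.9% to 17.3% in wild livers, and the FPKM of 5 mitochondrially encoded NADH dehydrogenase genes (ND1, ND2, ND3, ND5 and ND6) summed to 137704 to 197264 and to 15239 to 21094. The mode of log2 FPKM that centres zFPKM ran from 0.49 to 2.12 in laboratory and from 1.31 to 2.51 in wild livers, and the SD that scales it from 2.51 to 3.11 and from 2.69 to 3.12. Hepatocyte markers were expressed in all livers. Of the 7 tested of 10, Apoa1, Apoa2, Ttr and Serpina1a were higher and Apob was lower in laboratory livers, and quantile normalization turned the sign of Apoa1, Apoa2 and Ttr. Of all genes tested 7.17% were called higher and 7.28% lower. Erythrocyte markers were higher in laboratory livers for 5 of 6 (summed FPKM 1339.7 to 5135, against 724 to 1581). Of 6 genes each, markers of cholangiocytes were higher for 1 (29.7 to 64.6, against 12.2 to 27.6), of stellate cells for 2 (34.3 to 53.2, against 73.1 to 133.9) and of lymphocytes for 1 (3.96 to 4.38, against 1.86 to 5.44), and those of Kupffer cells (28.0 to 36.0, against 11.5 to 109.6) and endothelium (19.4 to 30.2, against 16.8 to 57.5) for 0 (1 gene of each at an unadjusted p under 0.05, limma). The stellate list was split. Col1a1 and Col3a1 were the 2 called higher. Dcn, Reln and Lrat had negative differences and Des a positive one, none of them called. Dcn made up most of the stellate sum, with FPKM of 21.7, 32.4 and 25.6 against 62.7, 112 and 77.2. Of 8 acinar pancreas markers 2 passed the filter, 0 were called (0 at an unadjusted p under 0.05, limma), and Prss2 and Amy2b were listed at 0 in all livers.

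Some members share their locus with other genes. Of the 41 genes 18 overlap another annotated gene and 8 overlap a protein-coding one: Oat with Fgfr2 on the same strand, and Gls2, Prodh, Sds, Hpd, Kmo, Bckdha and Pcca with Spryd4, Dgcr6, Plbd2, Psmd9, Fh1, B3gnt8 and Ggact on the other strand. These overlaps are of whole gene spans, and overlap of exons was not examined. The libraries keep the strand of the RNA, but whether the counting used it is not given in the sources used here. For Oat and Fgfr2 the strand would not separate reads. Whether any reads of these pairs were given to the wrong gene is not known.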

How the data were processed

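RNA from 6 frozen livers was sequenced as stranded poly(A) libraries, 1 per mouse. The authors aligned the reads with kalign to a masked genome (GRCm38.p6 per the labels), computed FPKM with the Tuxedo pipeline, and deposited for each gene the FPKM and a zFPKM score made with the R package zFPKM, in which log2 FPKM is centred on a mode and divided by an SD of each liver's own. The files analysed hold no read counts. The edgeR pipeline named in the methods needs them and was therefore not repeated, and the absolute depth is unknown. Depth relative to laboratory liver 2, from the step of low FPKM values, ran from 0.927 to 1.37. For that estimate, the upper bound of FPKM listed for laboratory liver 2 served to find names with about 1 read. No interval of FPKM is printed here. The methods describe the RNA-Seq steps without tool versions; versions they give for other assays are not restated here.

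Of 47256 names listed once for every liver, 24 with an estimate marked as failed were left out. The file of laboratory liver 1 marks no failures and lists fewer entries (49995 against 52188). A gene was tested if its zFPKM passed -3 in 3 or more of the 6 livers, and values under -3 were raised to it. The test was limma 3.58.1 (R 4.3.3) with a moderated variance that follows a trend on level. In the main fit that trend set the variance, with next to no weight on a gene's own livers. P-values were adjusted by Benjamini and Hochberg's method over 18619 genes, with 0.05 as the threshold. The samples of a group are separate mice. Other steps used Python 3.11.15, numpy 2.4.6, pandas 2.3.3 and matplotlib 3.10.9. Positions are counted from 1 and are those of RefSeq on GRCm38.p6 for all 41 genes; transcript length is that of the longest GENCODE transcript, known for 88.6% of genes. In a simulation with 3 livers in each group, 200 of 18619 genes were given a shift of 2 zFPKM. Of these, 83.5% were called, and 5.11% of 176 calls were false. That shift exceeds every difference of the set, the largest being -1.38 for Gnmt. All shifts were upward, noise was independent between genes, and no differences between whole livers were simulated. The simulation therefore cannot give the share called for differences of the size seen here, or the share of false calls in the real data.

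The genes and the lists of related genes and cell type markers were chosen with earlier results of these data known. The rule for named genes was every urea cycle enzyme, every called gene of the set, every gene whose groups do not overlap in zFPKM, and the highest and lowest gene of each role; of the other pathway genes, the 5 largest called rises and the 5 largest called falls. No list test was made. Of the 92 other pathway genes, Tdh and Dao were under the filter and others, among them Pycr3 and Mat2a, had no usable single entry; of the hepatocyte markers the same held for Alb, Serpina1b and Tf. Some named genes of these lists are not reported here. Alternatives changed the scale, the filter, the floor, the variance trend, the sex term, the handling of repeated names and the livers included; 4 of them (each repeated entry as its own row, centred log2 FPKM, leaving out laboratory liver 3 and wild liver 1 together, and removal of the length trend) were added after seeing the data.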

Additional observations from a re-analysis of the deposited data

How the results depend on the processing

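All 24 genes called lower kept their sign under each of 19 alternatives, with calls that came and went. The cause was not tested unless named. For most alternatives the sign was fixed in advance. The filter, the floor, the variance trend and the handling of repeated names in effect leave the difference of these genes unchanged. The 24 genes do not overlap between groups in zFPKM or FPKM. Leaving out livers, the sex term and uncentred log2 FPKM therefore could not turn the sign. Quantile normalization, centring on the median and removal of the length trend could have. Genes called lower numbered 13 with the median zFPKM of each liver set to 0 (33.3%, against 13.9% of all genes), 3 without the variance trend (7.69%, against 1.89%), 10 with sex as a covariate (25.6%, against 1.34%), 0 without the filter on low values (20 at an unadjusted p under 0.05, limma, over 47232 names, of which 0.0169% were called lower), and 15 to 22 when 1 liver was left out, against 3.03% to 7.09% of all genes (15, or 38.5%, without wild liver 3; 16, or 41%, without wild liver 2). Calls in either direction numbered 13, 3, 10 and 0 in the same order and 15 to 22 when 1 liver was left out. Over all genes, 2690 calls became 8242 with log2(FPKM + 1), 8589 with log2(FPKM + 0.1), 7282 with quantile normalization, 5270 with the median set to 0, 23 without the filter, 795 without the trend, 1374 with sex, 8817 with centred log2 FPKM, 5676 without laboratory liver 3 and wild liver 1, and 1420.0 to 2556 without 1 liver. The 29 calls among other pathway genes became 64, 64, 52, 28, 0 (without the filter), 3, 7, 52 and 51 in that order, and 15 to 29 without 1 liver. The median difference of the set was -1.89 and -1.93 on the log2(FPKM + 1) and log2(FPKM + 0.1) scales, whose unit is not that of zFPKM, and -1.19 with centring, where the median of all genes was 0.27 (-0.47 without centring).

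Signs turned for genes that were not called. Asl became -0.73, -0.74 and -0.046 with log2(FPKM + 1), log2(FPKM + 0.1) and quantile normalization, -0.039 to 0.035 without 1 liver (-0.034 without laboratory liver 2, -0.039 without wild liver 1), -0.012 without laboratory liver 3 and wild liver 1, and -0.000819 without the length trend. Fah became -0.63, -0.63 and -0.047 on the first 3 of these scales, and on the log2 scales Haao became -0.34 and -0.34 and Sds -0.26 and -0.26. With sex as a covariate Amt became 0.0057, Bckdha 0.047, Gls2 0.012 and Otc 0.047; Bckdha became 0.0054 with the median set to 0 and ran from -0.067 to 0.028 without 1 liver (0.028 without laboratory liver 3), and Otc ran from -0.097 to 0.071 without 1 liver (0.071 without laboratory liver 3) and was 0.028 without laboratory liver 3 and wild liver 1. Over all genes of the set and all alternatives, 569 comparisons kept direction and side of the threshold, 119 lost a call, 31 gained one and 22 changed sign. No paired analysis was possible because the labels give no replicate numbers that join laboratory and wild mice. The precision of low FPKM values was not examined, and 3 livers a group, with 1 wild male, limit every contrast.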
